A study of Rattus norvegicus with 6 samples.

Results

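The genes described here are the ligand Csf1, its receptor Csf1r and 8 genes that mark macrophages or are abundant in them: Spi1, Aif1, Tyrobp, Laptm5, Ptprc, Mpeg1, Lyz2 and Gpnmb. They were found through the RefSeq accession that names each array probe, matched to rat gene symbols. Of the 10 genes, 9 had at least 1 matched probe, which gave 10 probes of the 41012 on the array. Csf1 had 2 probes, each of the other 8 measured genes had 1, and Ptprc had no matched probe, so no level of it is given. The arrays measured total RNA of bone marrow cells from male rats, aged 8 weeks, kept under osteogenic conditions and collected on day 10 after the cultures were set up. One group of 3 samples had no treatment (control), and the other group of 3 samples was treated with LIPUS, low-intensity pulsed ultrasound, which reaches the cells as short bursts of sound. Each sample was put on 1 single-colour Cy3 array. The labels name no rat strain, no ultrasound setting and no number of animals, and they do not say whether samples of 1 group came from separate animals or cultures, so p-values measure only the spread between these samples, which may be technical.

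CSF1 (M-CSF) is the cytokine on which the survival and growth of most macrophages depend. In bone marrow it is made largely by stromal and osteoblast-lineage cells and read by CSF1R, a receptor tyrosine kinase of monocytes, macrophages and osteoclast precursors. PU.1, the ETS-family transcription factor encoded by Spi1, is needed for the myeloid lineage and acts at the promoters of many of its genes, often at sites with the core letters GAGGAA. A bone marrow culture under osteogenic conditions can hold both sides of this pair, since adherent macrophages often grow among the stromal cells.

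RefSeq promoter sequences of build GRCr8 were matched by symbol for 6 of the 10 genes (Csf1r, Laptm5, Ptprc, Mpeg1, Lyz2 and Gpnmb), and the 250 bases before each transcription start were searched on both strands. The start is the one that goes with each promoter sequence. For Csf1r, Ptprc, Mpeg1 and Lyz2 it lies inside the annotated gene, so part of the window is within the gene. The annotated Csf1r gene begins at 56834152, so most of its window is within it. Of these 6 windows, 5 held the PU.1 core GAGGAA or its reverse complement, against 23.3% of all 33469 rat promoter windows of that length. The exception was Mpeg1. The windows of Csf1r, Laptm5, Lyz2 and Gpnmb are shown because Csf1r fell in LIPUS, Laptm5 and Gpnmb were lower without passing the test, and the groups of Lyz2 overlapped. Each is given 5′ to 3′ on the strand of its gene, and capitals mark the PU.1 core or its reverse complement.
Csf1r (chr18:56834129-56834378, plus strand): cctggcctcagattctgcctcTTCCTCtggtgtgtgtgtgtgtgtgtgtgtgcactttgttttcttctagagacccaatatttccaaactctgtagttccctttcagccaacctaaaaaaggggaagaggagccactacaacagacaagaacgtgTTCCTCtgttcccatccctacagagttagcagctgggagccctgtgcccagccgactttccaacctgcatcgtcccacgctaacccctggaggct
Laptm5 (chr5:148371630-148371879, plus strand): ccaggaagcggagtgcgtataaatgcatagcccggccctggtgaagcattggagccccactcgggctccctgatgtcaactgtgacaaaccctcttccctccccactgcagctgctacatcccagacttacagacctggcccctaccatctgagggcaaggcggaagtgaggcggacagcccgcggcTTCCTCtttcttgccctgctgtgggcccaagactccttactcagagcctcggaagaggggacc
Lyz2 (chr7:54798012-54798261, minus strand): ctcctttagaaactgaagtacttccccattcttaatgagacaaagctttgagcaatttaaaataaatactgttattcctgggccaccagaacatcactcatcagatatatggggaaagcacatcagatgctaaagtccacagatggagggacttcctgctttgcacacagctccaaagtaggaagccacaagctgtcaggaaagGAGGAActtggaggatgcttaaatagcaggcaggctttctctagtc
Gpnmb (chr4:79340878-79341127, plus strand): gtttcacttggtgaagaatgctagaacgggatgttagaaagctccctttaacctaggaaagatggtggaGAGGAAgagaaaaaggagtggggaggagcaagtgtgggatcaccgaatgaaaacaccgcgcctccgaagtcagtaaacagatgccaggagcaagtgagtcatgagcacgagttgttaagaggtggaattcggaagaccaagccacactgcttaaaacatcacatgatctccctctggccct
The Csf1r window held 2 cores, starting 229 and 95 bases before the start and both on the opposite strand. Laptm5 had 1 on the opposite strand, 63 bases before the start, and Lyz2 and Gpnmb had 1 each on the gene's own strand, 46 and 181 bases before it. The window of Ptprc (chr13:52259747-52259996, minus strand) held 1 as well, 163 bases before its start. The longer PU.1 site AGAGGAAGT, which contains the core, was in none of the 6 windows and in 0.651% of all windows. Gpnmb alone of the 6 held GGAANNGAA, the first letters of a composite site for ETS and IRF factors (7.74% of all windows), and its match overlaps its PU.1 core. It was also the single one with the AP-1 letters TGANTCA (6.34% of all windows), 87 bases before its start. The TATA box letters TATAAA were in the Laptm5 window alone, 233 bases before the start (12.9% of all windows). These matches describe letters, not bound sites.

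A pair of sources gave the values. The spot tables give the brightness of each spot up to the scanner limit of 65535, and probe levels from them are log2 values after background correction, relative to the 75th percentile of the same array. The value table holds the authors' own processed log2 values, also with the 75th percentile of each array at 0, and it was used for spots at the scanner limit. Undoing its log2 gave whole numbers lower than the spot brightness, at a median ratio of 0.203 to 0.263 per array, and 29 to 93 probes per array above 90% of the limit. Which scan and which processing it comes from is not given in the sources used here. Of 41012 probes, 23260 were kept as above background, meaning that, on at least 3 of the 6 arrays, they were brighter than 95% of that array's 153 negative control spots. Arrays had 53.5% to 61.9% of probes above background and 320 to 468 probes at the scanner limit, and their levels correlated across probes with r of 0.964 to 0.986. The tilt of the scanned spot grid put control 1 and control 2 in one set (0.0925 and 0.0943 units of vertical shift per column) and control 3 with the 3 LIPUS arrays in another (0.0522 to 0.0601). The difference between LIPUS and control 3 alone, within the latter set, is therefore given beside the main values. It is not given for Mpeg1, the related lists or the markers of other cells. All 10 probes were kept, Mpeg1 only through its LIPUS arrays.

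Among the 10 probes, 1 of the 2 ligand probes and the receptor probe moved in opposite directions. In the spot tables Csf1 was 1.82-fold higher in LIPUS by probe 1 and Csf1r was 1.98-fold lower. Csf1 probe 2 read 1.31-fold higher and did not pass (limma adjusted p = 0.266). In the value table without dim probes, neither Csf1 probe 1 nor Csf1r passed (limma adjusted p = 0.0544 and 0.0535). The macrophage actin-binding protein gene Aif1 was 2.91-fold lower in the spot tables. Tyrobp, Laptm5 and Gpnmb, all at the scanner limit on the control arrays, were 2.17-fold, 1.61-fold and 1.41-fold lower in the value table, where Tyrobp alone of the 3 passed once dim probes were left out. Laptm5 passed only when those values were scaled on spike-in spots (limma adjusted p = 0.0436), where 1765 kept probes were called instead of 854. Over all 41012 probes that scaling moved the median change from −0.12 to −0.53. Lyz2 and Spi1 had overlapping groups in both sources. Of the 10 probes, 4 passed in the spot data at a limma adjusted p under 0.05, beside 6.51% of the 23260 probes tested (1515 probes). Higher in LIPUS was Csf1 probe 1, beside 2.86% of all probes, and lower were 2 (Csf1r and Aif1), beside 3.65%. The other of the 4 was Mpeg1, which entered the test only through the group where it is high, so its call supports nothing. Among probes above background on all 6 arrays, 3 of the 9 remaining probes passed, 1 higher and 2 lower. Only 1 of the 10 passed without control 1 or without any LIPUS array, and that was Aif1. The median change of the 10 probes was 0.09 on the log2 scale, with Mpeg1 included and 4 of them at the scanner limit, against 0.04 over all tested probes.

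**Figure D1:**
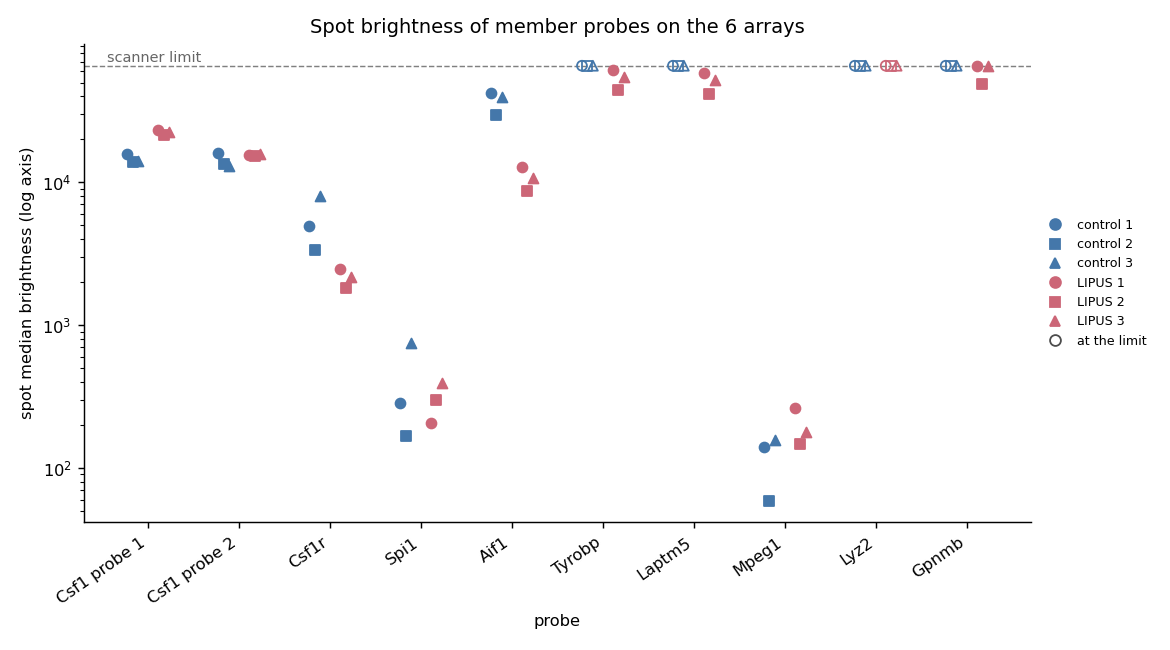
Median spot brightness (log axis) of the 10 probes on the 3 control arrays (blue) and the 3 LIPUS arrays (red), 1 point per array, with the scanner limit of 65535 as a dashed line and hollow points for spots at the limit. Aif1 and Csf1r are dimmer on all 3 LIPUS arrays, Csf1 probe 1 is brighter, and Tyrobp, Laptm5, Lyz2 and Gpnmb are at the limit on all 3 control arrays.

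Csf1 (NM_023981) was read by a pair of probes of similar brightness, and one of them passed the test. Probe 1 (A_42_P695042) had spots of brightness 15792, 13867 and 14184 in the untreated group, and of 23330, 21617 and 22442 after LIPUS. Its log2 levels were 4.09, 4.20 and 3.76 in control and 4.80, 4.97 and 4.89 in LIPUS. Every LIPUS array was above every control array, and control 3 was the lowest. The log2 change was 0.87 (SE 0.17, limma adjusted p = 0.0179, n = 3 per group), and it was 1.13 against control 3 alone. This call was lost without control 1 or without any 1 of the LIPUS arrays (adjusted p of 0.0541 to 0.0734). With arrays scaled on spike-in spots, where the median change of all probes became −0.30, the change of probe 1 was 0.53 (adjusted p = 0.115).

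Probe 2 of Csf1 (A_44_P343859) had spot brightness of 16095, 13345 and 12928 in control and 15428, 15303 and 15878 in LIPUS. Its log2 levels were 4.12, 4.15 and 3.63 in control and 4.20, 4.47 and 4.39 in LIPUS, so the highest control array was just below the lowest LIPUS array; groups did not overlap for 27.2% of all tested probes. Its log2 change of 0.39 (SE 0.19) did not pass (limma adjusted p = 0.266), with a 95% interval of −0.04 to 0.81. Against control 3 alone it was 0.73. The gap between the probes can be read within each array, where scaling between arrays cancels. Probe 1 minus probe 2 was −0.03, 0.05 and 0.13 for control 1, 2 and 3, and 0.60, 0.50 and 0.50 for LIPUS 1, 2 and 3. The gap was thus 0.48 larger in LIPUS, and a two-sided exact permutation test gave p = 0.1, which is the lowest p that 3 against 3 arrays allow. The value table gave the same order, with gaps of 0.10, 0.08 and 0.22 in control and 0.72, 0.54 and 0.57 in LIPUS. The files do not say which part of the Csf1 transcript each probe reads.

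In the value table, Csf1 probe 1 was 4.27, 4.44 and 3.98 in control, against 5.01, 5.13 and 5.11 in LIPUS, a change of 0.85 that did not pass over all 41012 probes (limma adjusted p = 0.202). No probe of the table passed there (0% called, with 13% of probes at an unadjusted p under 0.05). When the fit was restricted, after the data had been seen, to the 23260 probes kept in the spot tables, 854 probes passed (3.67%) and Csf1 probe 1 had an adjusted p of 0.0544. Probe 2 was 4.17, 4.35 and 3.77 without treatment and 4.29, 4.58 and 4.54 with it, which overlap (change 0.37, adjusted p = 0.353). The restricted fit is the one given for the value table from here on. Its median change over all kept probes was −0.03. Without control 1, without control 2 or with the grid-tilt set as a fixed block, that fit called no probe.

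Csf1r (NM_001029901), the receptor, was lower on all 3 LIPUS arrays. Its control spots read 4977, 3368 and 7989 and its LIPUS spots 2479, 1819 and 2185. Log2 levels were 2.44, 2.19 and 2.93 in control and 1.60, 1.43 and 1.57 in LIPUS. The LIPUS arrays lay close together (SD 0.09) and the control arrays were more spread (SD 0.38) with control 3 the highest, and the groups did not overlap. The log2 change was −0.98 (SE 0.21, limma adjusted p = 0.0223), or 1.98-fold lower, and it was −1.40 against control 3 alone. The call was lost without control 1 or without any 1 LIPUS array (adjusted p of 0.0642 to 0.0831). Value-table levels were 2.59, 2.38 and 3.09 in control and 1.37, 1.48 and 1.73 in LIPUS, a change of −1.16 (SE 0.23, adjusted p = 0.0535). These are bulk samples, in which fewer cells of a type and less RNA per cell cannot be told apart.

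Spi1 (NM_001005892), the gene of PU.1, was the dimmest of the probes that were above background on all 6 arrays. The spot read 287, 168 and 752 without treatment and 205, 299 and 392 with it. Its log2 levels of −1.47, −1.74 and −0.36 in control overlapped those of −1.62, −0.96 and −0.73 in LIPUS. Control 3 was the highest of the 6 and control 2 the lowest. The log2 change was 0.09 (SE 0.35, limma adjusted p = 0.914) with a 95% interval of −0.70 to 0.88. Against control 3 alone the difference was −0.74, the opposite sign, so the Spi1 probe gives no direction. The value table again put control 3 (−0.46) at the top of the control arrays, beside −2.34 and −1.44, with LIPUS arrays at −1.25, −1.16 and −0.47.

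Aif1 (NM_017196) encodes a calcium- and actin-binding protein (IBA1) used as a marker of macrophages and microglia. Its spots had a brightness of 42206, 29531 and 39639 in control, against 12790, 8756 and 10669 in LIPUS. Its log2 levels were 5.51, 5.29 and 5.25 in control and 3.94, 3.67 and 3.82 in LIPUS. Both groups were tight, with SDs of 0.14 each, and lay far apart. The log2 change was −1.54 (SE 0.16, limma adjusted p = 0.00105), or 2.91-fold lower, and 0.447% of all tested probes fell further. It was −1.44 against control 3 alone, and Aif1 passed whichever array was left out (adjusted p of 0.00508 to 0.00837). A fit of control 3 and the LIPUS arrays alone takes its spread from the 3 LIPUS arrays and assumes that the lone control varies like them. No probe of the 23260 passed in it (Aif1 adjusted p = 0.0843). The value table gave 5.50, 5.63 and 5.41 in control and 3.92, 3.83 and 4.04 in LIPUS, a change of −1.58 (SE 0.15, adjusted p = 0.0127). There the call was lost without control 1 (0.079) or control 2 (0.0723), and with the grid-tilt set as a fixed block (0.114), where no probe of the table was called.

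Tyrobp (NM_212525) encodes DAP12, the transmembrane adaptor through which many myeloid receptors signal. Its spot stood at the scanner limit on all 3 control arrays and read 60917, 44197 and 54946 on the LIPUS arrays. From these values its mean level was 1.05-fold lower in LIPUS, where the brighter group enters at the scanner limit. The scaled groups overlapped (95% interval of the log2 change −0.46 to 0.33), so this is no firm bound. Against control 3 alone the same values give no bound (log2 difference 0.15). After the log2 of the value table was undone, no array of any of the 10 probes was above 54.6% of that limit. The Tyrobp levels there were 7.44, 7.6 and 7.47 in control and 6.36, 6.20 and 6.61 in LIPUS. The groups were far apart, and the change was −1.11 (SE 0.17, limma adjusted p = 0.0269), or 2.17-fold lower, with −1.08 against control 3 alone. This call did not survive the loss of any 1 array (adjusted p of 0.054 to 0.109) the grid-tilt set as a fixed block (0.161) or the test over all 41012 probes (0.131).

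Laptm5 (NM_053538), a lysosomal membrane protein of blood cells that turns over immune receptors, had the same form. Its spot was at the limit on the 3 control arrays and read 58722, 41273 and 51734 in LIPUS. With control entered at the limit, the mean level was 1.11-fold lower. The scaled groups overlapped (95% interval of the log2 change −0.54 to 0.25), so this is no firm bound either. Against control 3 alone there was no bound (log2 difference 0.07). The value table gave 7.11, 7.13 and 6.93 in control and 6.32, 6.20 and 6.60 in LIPUS. The groups did not overlap, but the change of −0.68 (SE 0.17) did not pass (limma adjusted p = 0.0882). Against control 3 alone the value-table change was −0.56.

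Gpnmb (NM_133298), a glycoprotein of macrophages, osteoclasts and osteoblasts (osteoactivin), was also at the limit on the 3 control arrays and close to it in LIPUS, at 65163, 48974 and 64911. The spot tables give it no bound. The value table put it at 7.04, 7.08 and 6.95 in control and 6.50, 6.37 and 6.72 in LIPUS. All 3 LIPUS arrays were below the control arrays, and the change of −0.49 (SE 0.16) did not pass (limma adjusted p = 0.149). Against control 3 alone this change was −0.42.

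Lyz2 (NM_012771), the lysozyme of macrophages and neutrophils, was at the scanner limit on all 6 arrays, so the spot tables say nothing of its change. By the value table it was 6.82, 7.15 and 7.19 in control, against 7.17, 7.14 and 7.17 in LIPUS. The LIPUS arrays lay inside the control range. The change was 0.11 (SE 0.16, limma adjusted p = 0.747) with a 95% interval of −0.28 to 0.49, and it was −0.03 against control 3 alone. The interval of Lyz2 does not reach the changes of Csf1r, Aif1 and Tyrobp in the same table. The difference between these genes was not tested.

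Mpeg1 (NM_022617), the pore-forming perforin-2 of macrophages, was faint. Its spots net of local background read 100, 17 and 97 in control, none above the limits of 133.4, 112 and 98.8 set by the negative controls. The LIPUS arrays read 185, 107 and 133, above limits of 101, 84.6 and 49.6. The control 2 spot also carries a quality flag of −50 in the file. With control set at the lowest level measured above background, LIPUS read 1.37-fold higher, which is no firm bound. The LIPUS 2 value of 107 was below the limits of control 1 and control 2, so the split also follows the unequal limits. The fitted log2 change of 0.77 (SE 0.18, limma adjusted p = 0.0309) is a description only, since the probe passed the filter through its LIPUS arrays alone, and it was not called without control 1, control 2 or any LIPUS array. The value table had levels of −3.45, −3.0 and −3.88 in control and −2.86, −3.36 and −4.02 in LIPUS, which overlap (change 0.03, SE 0.36, adjusted p = 0.974). The higher LIPUS values of Mpeg1 were thus seen in the spot tables only.

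**Figure D2:**
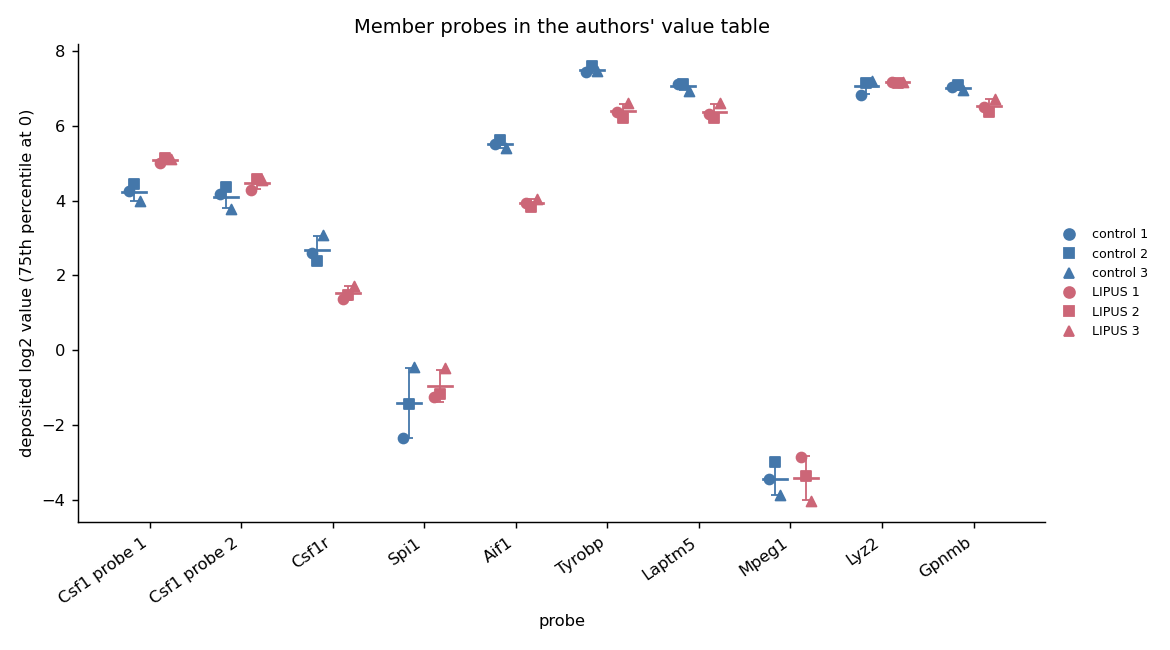
Deposited log2 values of the 10 probes (75th percentile of each array at 0), 1 point per array, for 3 control arrays (blue) and 3 LIPUS arrays (red); horizontal lines are group means and bars are SDs (n = 3). Aif1, Tyrobp, Csf1r, Laptm5 and Gpnmb are lower on all 3 LIPUS arrays, Csf1 probe 1 is higher on all 3, and Csf1 probe 2, Spi1, Mpeg1 and Lyz2 overlap.

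Set side by side in the value table, 5 of the 10 probes were lower on all 3 LIPUS arrays than on any control array (Csf1r, Aif1, Tyrobp, Laptm5 and Gpnmb), beside 14.5% of the kept probes. Just 1 was higher on all 3 (Csf1 probe 1), beside 14.2%. The adjusted p was under 0.05 for 2 of the 10, both lower (Aif1 and Tyrobp), beside 2.36% of the kept probes, and for none was it higher, beside 1.32%. Over the same 10, the unadjusted p was under 0.05 for 6, beside 21.2% of the kept probes. The median change of the 10 probes was −0.23.

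**Figure D3:**
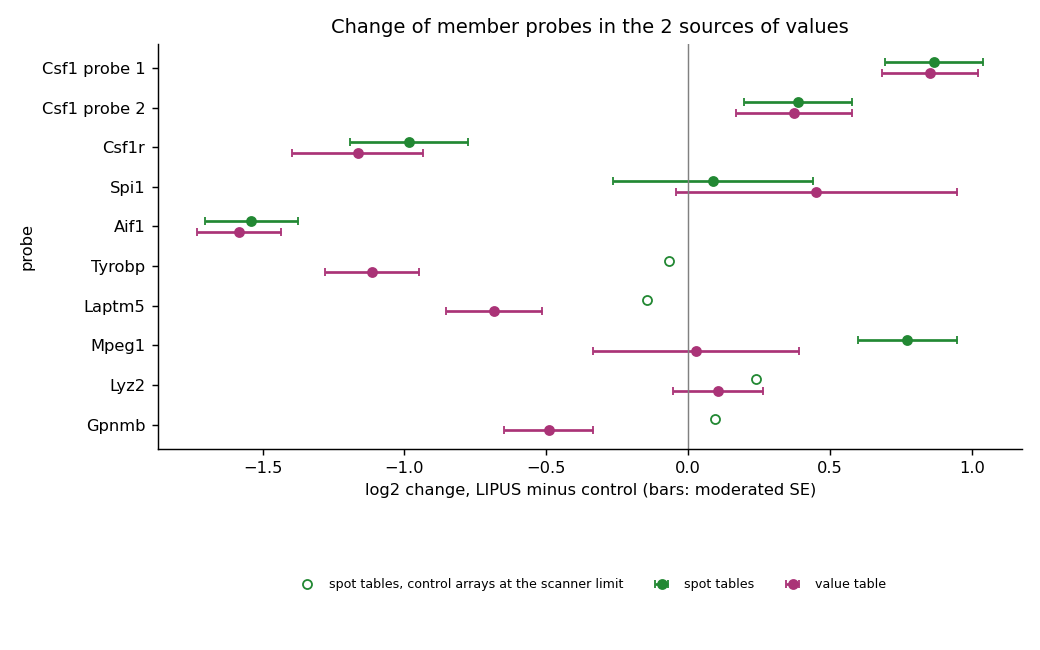
Log2 change (LIPUS minus control, n = 3 per group) of each probe in the spot tables (green) and the value table (purple) with moderated standard errors; hollow green points are probes with all 3 control arrays at the scanner limit, whose spot-table change is no estimate. The sources give like values for Csf1, Csf1r and Aif1, while Tyrobp, Laptm5 and Gpnmb are below 0 in the value table and Mpeg1 differs between the sources.

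The levels of Csf1, Csf1r and Spi1 over the 6 arrays were compared with those of 7106 other kept probes with a gene symbol. This is a description over 6 points that share the treatment split and the array scaling. Closest to Csf1 probe 1 were the kinase gene Tnk2 (Pearson r = 0.999), the prion protein gene Prnp (0.998), the kinase gene Dapk2 (0.996) and Rcn2 (0.995). The same correlations in the value table were 0.999, 0.814, 0.926 and 0.837. Closest to Csf1 probe 2 were Rcor2 (0.99), Klf4 (0.986), Yme1l1 (0.981) and Tbc1d20 (0.98), and the last of these fell to −0.24 in the value table. Closest to Csf1r were Eef2k (0.996), the mitotic kinase gene Aurka (0.996), Hmgn2 (0.991) and Adap2 (0.991), with 0.949, 0.787, 0.799 and 0.973 in the value table. Closest to Spi1 were Plekhf1 (0.995), Golph3l (0.995), Nfkb2 (0.979) and Ptch1 (0.976), and Ptch1 had −0.16 in the value table. No gene of the list was among the nearest of another. An r above 0.95 was reached by 116 probes for Csf1 probe 1, 30 for probe 2, 67 for Csf1r and 12 for Spi1.

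Around these genes, 7 lists of related genes were read, from colony-stimulating factors to the leukocyte cytoskeleton. Without the 10 genes themselves they hold 120 symbols, of which 76 genes had kept probes. Of their 91 probes, 20 fell, 4 were called higher and 67 did not pass (limma adjusted p under 0.05), beside 3.65% of all probes lower and 2.86% higher. One of the 4, Cd52, was kept only through its LIPUS arrays. The median change was −0.28, or −0.35 over the 82 probes never at the scanner limit, against 0.04 over all tested probes. With the 10 genes included, 28 probes of these lists passed, and 10 with the grid-tilt set as a fixed block. Leaving out control 1 or LIPUS 2 gave 17, leaving out LIPUS 1 gave 18, and control 3 with the LIPUS arrays alone, 1 array against 3, gave 0.

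In the list of colony-stimulating ligands and receptors no gene other than Csf1 and Csf1r passed. The interleukin 3 receptor gene Il3ra (NM_139260) changed by −0.49 (SE 0.19, limma adjusted p = 0.168), and the KIT ligand gene Kitlg by −0.19 (SE 0.16, adjusted p = 0.533). Among kinases, adaptors and phosphatases below CSF1R, 3 probes fell, 2 rose and 21 did not pass, with a median of 0.01. Of all tested probes 3.65% were called lower and 2.86% higher. The Src-family kinase gene Lyn fell by 0.82 on the log2 scale by one probe (adjusted p = 0.0157), though its other probe read −0.53 and did not pass (0.257). Ptpn6, which encodes the phosphatase SHP-1, fell by 1.22 (0.00501). Both probes of the broadly expressed Src-family gene Fyn rose, by 1.02 and 1.04 (0.00483 and 0.0296).

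Among myeloid transcription factors 2 of 12 probes fell, none rose and 10 did not pass, with a median of −0.12. The shares over all tested probes were 3.65% lower and 2.86% higher. The oxysterol receptor gene Nr1h3 and the factor gene Maf read −0.56 and −0.59 and did not pass (limma adjusted p = 0.0686 and 0.0897). Spi1 belongs to this list and, as given above, did not pass either.

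Of 8 probes for adaptors of the DAP12 and FcR-gamma kind and their partners, Tyrobp included, 2 fell and 1 rose. Their median was −0.66, and of all tested probes 3.65% were called lower and 2.86% higher. The inhibitory receptor gene Sirpa fell from 4.94 ± 0.11 to 3.13 ± 0.09 (SD, n = 3), a 3.52-fold fall (limma adjusted p = 0.000477). Syk, the kinase recruited by DAP12, fell 2.73-fold (0.00587), and the adaptor gene Blnk rose 2.11-fold (0.00483). Macrophage surface proteins had 5 probes lower, 1 higher and 8 not passed, with a median of −0.61, beside the same shares of all tested probes. The F4/80 gene Adgre1 fell 2.50-fold (adjusted p = 0.0022), and both probes of the LPS co-receptor gene Cd14 fell, by 0.88 and 0.72 on the log2 scale (0.0151 and 0.0432). Cd52, a glycoprotein of leukocytes, was not above background on any control array. With control set at the lowest level measured above background, LIPUS read 1.94-fold higher, which is no firm bound. Cd52 passed the filter only through its LIPUS arrays, so its adjusted p of 0.00217 is a description, and in the value table it changed by 1.19 and did not pass (0.178). Cd68, a lysosomal glycoprotein named here because it is on the list of macrophage markers, was at the scanner limit on the 3 control arrays, and in the value table it fell by 0.95 (adjusted p = 0.0231). That call was lost without control 1 or control 2, where no probe of the value table was called.

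The list of macrophage lysosome and phagosome proteins had 2 probes lower, 1 higher (Mpeg1) and 20 not passed. Of its 23 probes, 11 were at the scanner limit on some array. Over all tested probes 3.65% were called lower and 2.86% higher. The median of this list was 0.02, against 0.04 over all tested probes. The iron transporter gene Slc11a1 fell by 0.93 (limma adjusted p = 0.0322) and the cathepsin gene Ctsz fell by 0.64 (0.0391). In the list of leukocyte cytoskeleton and NADPH oxidase genes, which includes Aif1, 7 of 12 probes fell and none rose. These counts stand beside the same shares of all tested probes, and the list median was −0.83. The blood-cell GTPase gene Rac2 fell 2.25-fold (adjusted p = 0.00409), its inhibitor Arhgdib 2.42-fold (0.00479), the actin bundler Lcp1 2.43-fold (0.00509) and the actin-capping gene Capg 1.77-fold (0.0144).

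**Figure D4:**
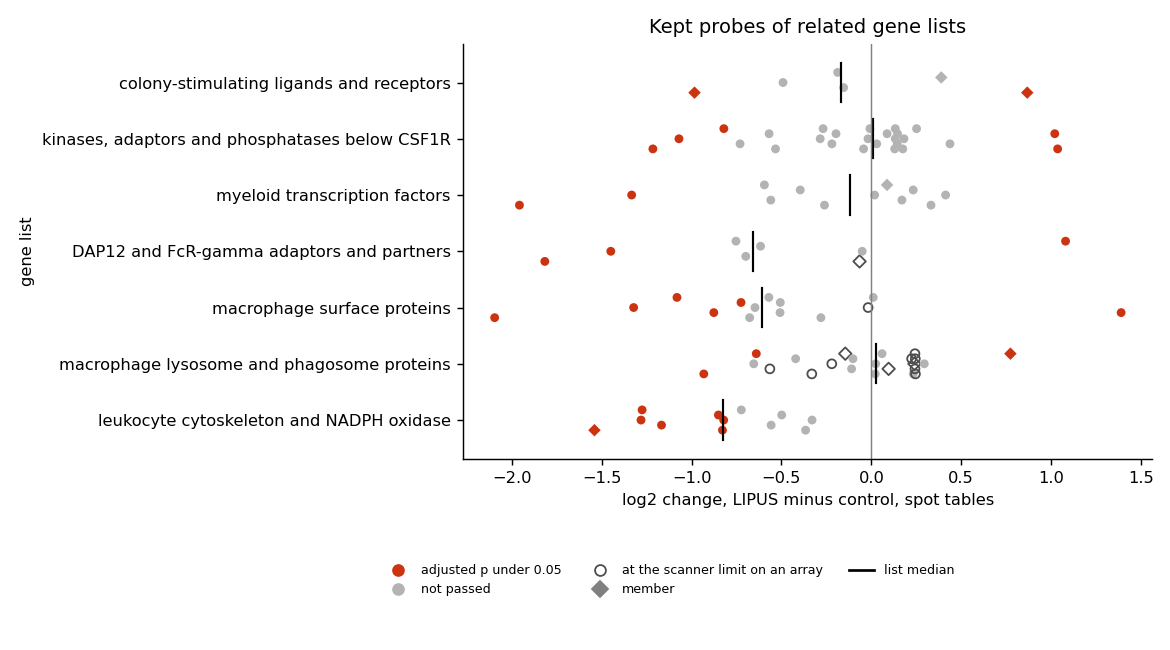
Log2 change (LIPUS minus control, spot tables, n = 3 per group) of every kept probe in 7 lists of related genes; red points passed at an adjusted p under 0.05, grey points did not, hollow points reached the scanner limit on an array, diamonds are Csf1, Csf1r and the macrophage genes described with them and black bars are list medians. Called probes lie mostly below 0 in the lists of surface proteins and of cytoskeleton genes, whose medians are −0.61 and −0.83.

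Of a list of 10 macrophage markers (Csf1r, Spi1, Aif1, Tyrobp, Laptm5, Ptprc, Mpeg1, Lyz2, Cd68 and Adgre1), 9 had a probe, 8 of these were above background on all 6 arrays and Mpeg1 on 3. Markers of other cells were read as the sum of their probe levels on each array, in units of the array's 75th percentile. Osteoblast markers (8 of 10 genes with a probe, 4 of 9 probes at the scanner limit) summed to 309 to 397 in control and 396 to 474 in LIPUS. Those 4 probes were at the limit on all 6 arrays, so their part of the sum follows array scaling, not level. Of the osteoblast probes 2 passed, both higher, and 7 did not pass. The matrix phosphoprotein gene Dmp1 rose 3.01-fold (limma adjusted p = 0.000772) and the phosphate-regulating endopeptidase gene Phex 2.44-fold (0.00572). In the value table Spp1 and Bglap, at the limit on all 6 arrays, rose by 2.07 and 1.97 on the log2 scale (0.0105 and 0.0136). The Col1a2 probes, also at the limit on all 6, changed there by 0.48 and 0.11 and did not pass (0.171 and 0.715). Without control 1, without control 2 or with the grid-tilt set as a fixed block, no probe of the value table was called. Osteoclast markers, whose cells also carry CSF1R, summed to 22.6 to 28.9 and 26.9 to 30.6. Their acid phosphatase gene Acp5 (0.23, limma adjusted p = 0.462) and cathepsin K gene Ctsk (0.11, 0.799) did not pass, and Calcr and Mmp9 were not above background on any array. Megakaryocyte markers summed to 57 to 73.6 in control and 23.1 to 25.9 in LIPUS, and of their kept probes that of the platelet chemokine gene Pf4 alone fell, 3.41-fold (adjusted p = 0.000772). Of the others, Gp1bb rose 1.84-fold (0.0268), Ppbp and Gp9 read 0.33 and 0.25 without passing, and the list median was 0.29. Endothelial markers summed to 5.02 to 5.78 and 1.92 to 2.51, with Pecam1 not above background, Esam and Icam2 lower (adjusted p = 0.00187 and 0.0127) and Kdr at −0.60 (0.0946). The part of these other cells in the changes of the macrophage genes was not tested.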

How the data were processed

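Single-colour arrays of 3 control and 3 LIPUS samples were analysed, grouped by their titles. The deposited spot tables give spot and background brightness as intensity, pixels at the scanner limit in percent, and flags and positions as a score, per the file headers; gridding software is not given in the sources used here. The value table deposited by the authors is on a log2 scale, found from its values (75th percentile 0 in every column; column medians −2.85 to −2.37; correlations of 0.956 to 0.977 with the spot levels); how its background was treated stays unknown. Per array, 98.7% to 98.9% of its values became whole numbers within 0.01 when the log2 and the offset were undone.

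Spot medians were background-corrected with limma's normexp (offset 50), log2-transformed, averaged per probe and reduced by the array's 75th percentile; no processed signal was in the files. Every kept probe was fitted (lmFit, eBayes, limma 3.58.1, R 4.3.3), two-sided, with Benjamini-Hochberg adjustment over all of them; the script was tested on simulated data. The number of arrays limits the precision. Symbols came from RefSeq (GRCr8) for 10768 probes. Samples were not paired by replicate number in the fit, and whether same-numbered samples share more than the number is not known. The 10 genes and all lists were chosen with earlier results of these data known. Named are all 10 genes, up to 4 called genes per related list by smallest p (2 that did not pass where fewer than 2 were called), fixed cell markers, and the 4 genes nearest to Csf1, Csf1r and Spi1; provisional symbols were left out. Some genes that the rule names are not reported here. Figures used matplotlib 3.10.9 in Python 3.11.15. Alternatives covered background, scaling, filters, blocks and left-out arrays.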

Additional observations from a re-analysis of the deposited data

How the results depend on the processing

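Counts of probes called (limma, adjusted p under 0.05) were 1515 over all probes, 4 of the 10 and 28 in the related lists with the 10 genes included. They were 625, 1 and 13 with plain background subtraction, 686, 1 and 15 with no filter on dim probes, 3692, 2 and 47 with spike-in scaling, and 0, 0 and 0 in the value table as deposited. Quantile normalization left 2 of the 10. Leaving out 1 array gave 670 to 2288, 1 to 4 and 17 to 29; all probes were above the main count only without control 3. The scan geometry set as a fixed block gave 289, 3 and 10, and control 3 with the LIPUS arrays alone, chosen after seeing the data and with 1 array as control, gave 0, 0 and 0. Calls were 44% higher in LIPUS in the main scaling, 32.4% with median centring and 5.69% with spike-in scaling. The value table restricted to kept probes gave 854 and 2, or 1765 and 4 with spike-in scaling (Csf1r, Aif1, Tyrobp and Laptm5) and 0 and 0 with the geometry block; over all 41012 probes spike-in scaling gave 41. The replicate block gave 1241, 4 and 26, and same-numbered deviations correlated at 0.000746, 0.0082 and −0.0153. With 3 arrays per group this cannot settle whether same-numbered samples were paired. Aif1, Csf1r and Csf1 probe 1 kept their sign under every alternative run, but Csf1 probe 1 and Csf1r each lost their call under 9 of 20, among them plain subtraction (adjusted p = 0.0585 and 0.083), no dim filter (0.0607 and 0.0668) and, for Csf1r, quantile normalization (0.0636); Aif1 lost its call under 2 of 20. Mpeg1 lost its call under 15 of 19. Spi1 turned negative with spike-in scaling (−0.25), the scan geometry as a fixed (−0.74) or random block (−0.13), control 3 alone with LIPUS (−0.74), and, over the arrays left out in turn, ranged from −0.19 to 0.50 (below 0 without control 1, control 2 or LIPUS 3). In the value table signs also turned for Spi1 (−0.50 with the geometry block or those 4 arrays; −0.011 to 0.93 with an array left out), Lyz2 (−0.029 with the block or those 4 arrays, −0.30 with spike-in scaling, −0.011 to 0.17 with an array left out), Mpeg1 (−0.38 with spike-in scaling, −0.25 to 0.33 with an array left out) and Csf1 probe 2 (−0.032 with spike-in scaling); the cause was not tested. Signal limits Mpeg1 and Spi1, and the scanner limit Tyrobp, Laptm5, Lyz2 and Gpnmb.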

Other observations

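Markers of further cell types were read in the same way. Mast cell and basophil markers, most of them above background on all arrays, summed to 15.5 to 17.5 in control and 15.5 to 18.2 in LIPUS (units of the array's 75th percentile), and none of their 8 kept probes passed. Adipocyte markers summed to 108 to 133 and 130 to 146, with the Fabp4 probe, a large part of the sum, at the scanner limit on 4 of the 6 arrays. Of the adipocyte probes, that of Cidec rose 2.13-fold (limma adjusted p = 0.00805) and 5 did not pass. The calgranulin gene S100a8, made by neutrophils and monocytes, was the single neutrophil marker kept and rose 1.98-fold (limma adjusted p = 0.0209). In the value table its change of 1.47 did not pass (0.111). S100a9 and Mmp8 were not above background on any array. Neutrophil markers summed to 1.19 to 1.51 in control and 1.67 to 2.3 in LIPUS. T and NK cell markers summed to 1.39 to 1.65 and 1.78 to 2.26, and none of their 3 kept probes passed. Of 6 B cell markers 1 had a probe, which was not kept as above background (0.136 to 0.251 in control and 0.141 to 0.235 in LIPUS).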
